A study of Mus musculus with 15 samples.

Results

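Bile acids are made in the liver, released into the gut and taken back up at the end of the small intestine. The sodium-dependent transporter Slc10a2 brings them across the apical membrane of the ileal enterocyte, the binding protein Fabp6 carries them in the cytosol, and the exporter formed by Slc51a and Slc51b passes them to the blood. Inside the cell they activate the nuclear receptor Nr1h4 (FXR), whose known targets include Fabp6, both exporter genes, the corepressor Nr0b2 (SHP) and the hormone Fgf15, which restrains bile acid synthesis in the liver. In the mouse, Slc10a2, Fabp6 and Fgf15 are known as genes of the distal small intestine, while the exporter subunits and Nr1h4 are also found further up. These 7 genes were taken by gene identifier from the 27179 genes of the count table, and all 7 were in it.

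RNA was sequenced from epithelial cells of mice that carry a green fluorescent reporter and an inducible Cre in the Lrig1 gene (Lrig1-eGFP-IRES-CreERT2) together with the APCmin allele, a mutation of Apc that gives intestinal tumors. Lrig1 marks stem and progenitor cells of the gut and restrains ErbB signalling. EpCam+ cells without CD45 and CD31 were sorted by the reporter from tumors and from epithelium labelled normal. The normal tissue therefore came from the same mutant strain, and both alleles were in every group. The groups compared were Lrig1-high tumor cells (3 libraries), Lrig1-low tumor cells (3), Lrig1-high normal cells (4) and Lrig1-low normal cells (4). Libraries are named by the running number in their titles: S04, S08 and S12, then S03, S07 and S11, then S02, S06, S10 and S14, then S01, S05, S09 and S13. The labels used here name no animal, age, sex or batch, so p-values reflect only how far libraries of a group lie apart, which may be technical.

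The 14 libraries held 9508505 to 17296536 counts, and S15, labelled tumor Lrig1-low, held 357 and was left out. All samples are labelled colon, but not all genes of a list of 10 colon genes were present. Hoxb13, a homeobox gene of the hindgut, had no count in any of the 14 libraries, and Car1, a carbonic anhydrase of colonocytes, reached 0.222 CPM, the count scaled to a library of 1000000. Aqp8 and Ly6g6c, also of the list, did not exceed 4.92 and 2.74 CPM. Others of the list were present, among them Aqp4 (9.54 to 188.3 CPM) and the anion exchanger Slc26a3 (15.7 to 163.2 CPM). Which part of the gut the samples came from was not tested. Genes of small intestinal enterocytes were abundant. Sis, the brush border sucrase-isomaltase, had 101.5 to 690.4 CPM in tumor libraries and 276.2 to 3032 CPM in normal libraries. Lrig1 itself lay outside the range of the other libraries of the same sort label in 4 libraries. It had 55.6 CPM in S08 (tumor, labelled high) and 141.6 CPM in S07 (tumor, labelled low). In normal cells it had 36.3 CPM in S10 (labelled high) and 85.5 CPM in S09 (labelled low). The other high libraries had 72.5 to 148.1 CPM and the other low ones 43.0 to 53.9 CPM, so S08 lay between these ranges. In S12, mitochondrial ribosomal RNA took 42.8% of the counts, against 12.9% to 27.1% in the other libraries.

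The upstream sequences of 4 members are shown, those of both exporter genes, Fabp6 and Slc10a2. Whether the marked letters have a part in the levels of these genes was not tested. Each run has 250 bases before and 50 bases from the start that the RefSeq table gives, read on the gene's strand (the minus strand for all 4) of GRCm38.p6, the build that mm10 names. Capitals mark a match to the nuclear receptor hexamer AGGTCA in Slc51a (chr16:32487830-32488129) and Slc51b (chr9:65422724-65423023), to the CDX motif TTTATG in Fabp6 (chr11:43601513-43601812) and Slc10a2 (chr8:5105238-5105537), and to the HNF1 hexamer GTTAAT in Slc10a2, on either strand.
Slc51a: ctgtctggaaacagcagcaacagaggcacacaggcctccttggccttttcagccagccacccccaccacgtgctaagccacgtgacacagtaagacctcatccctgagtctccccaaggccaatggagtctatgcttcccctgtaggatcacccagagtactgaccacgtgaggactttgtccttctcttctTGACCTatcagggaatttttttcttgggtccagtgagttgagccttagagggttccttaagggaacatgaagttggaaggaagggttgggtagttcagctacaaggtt
Slc51b: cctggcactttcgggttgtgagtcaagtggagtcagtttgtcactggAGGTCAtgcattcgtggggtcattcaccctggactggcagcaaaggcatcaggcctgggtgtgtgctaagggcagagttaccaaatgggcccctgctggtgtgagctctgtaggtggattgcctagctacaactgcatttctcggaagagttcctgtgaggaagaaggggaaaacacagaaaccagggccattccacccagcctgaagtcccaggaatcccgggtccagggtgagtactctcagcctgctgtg
Fabp6: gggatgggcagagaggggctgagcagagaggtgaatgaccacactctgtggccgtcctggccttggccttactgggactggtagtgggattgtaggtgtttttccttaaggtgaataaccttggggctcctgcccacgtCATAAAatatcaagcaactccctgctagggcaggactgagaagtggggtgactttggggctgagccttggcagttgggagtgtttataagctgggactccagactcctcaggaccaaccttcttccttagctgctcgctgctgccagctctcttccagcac
Slc10a2: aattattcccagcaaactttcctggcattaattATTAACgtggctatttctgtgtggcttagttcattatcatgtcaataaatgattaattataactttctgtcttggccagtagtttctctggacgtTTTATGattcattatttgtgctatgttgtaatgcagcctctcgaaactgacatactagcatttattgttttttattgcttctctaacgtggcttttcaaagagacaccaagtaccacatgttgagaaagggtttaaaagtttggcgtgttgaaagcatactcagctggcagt

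RefSeq promoters were found for 6 of the 7 members, Fgf15 having no entry in the table. AGGTCA was in the windows of Slc51a, Slc51b and Nr1h4 and in 16.3% of 32851 mouse promoters of this length. TTTATG, bound by the intestinal factors Cdx1 and Cdx2, was in those of Fabp6, Slc10a2 and Nr1h4 and in 11.9% of all promoters. GTTAAT was in those of Slc10a2 and Nr1h4 and in 7.10%, and the GATA motif AGATAA was in that of Nr1h4 and in 11.2%. The exact inverted repeat AGGTCANTGACCT, a consensus of the element that FXR binds with its partner RXR, was in none of the 6 windows. It was in 0.00913% of all promoters. Elements that depart from these letters were not searched for, so its absence does not show that a window lacks an FXR element. The Fabp6 window holds the close run aggtgaataacct, which the exact search did not count. The start in that table is the end of the counted gene for Slc51a and Slc51b, but lies upstream of it for Fabp6 and Slc10a2, whose windows hold no counted base, and inside the gene for Nr1h4. Both strands were searched, no 2 matches of the members overlapped, and such matches describe letters, not binding sites.

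Ordered by mean CPM per kb of exon over the 14 libraries, Fabp6 came highest at 31.3, followed by Slc51a at 17, Slc51b at 16.9 and Nr1h4 at 12.1, and then by Slc10a2 at 0.812, Nr0b2 at 0.596 and Fgf15 at 0.104. The place of Fabp6 rested on a few libraries: its median was 2.81 CPM per kb and its maximum 235.8. The ranges of Fabp6, both exporter subunits and Nr1h4 overlapped over the libraries, and so did those of Slc10a2, Nr0b2 and Fgf15. Fabp1 and Fabp2, the fatty acid binding proteins of the same family that are used more widely along the small intestine, stood above Fabp6 on this scale. Fabp1 had 159.5 ± 94.1 CPM per kb in tumor libraries (SD, n = 6) and 325.4 ± 260.2 in normal libraries (SD, n = 8). Fabp2 had 152.0 ± 52.7 CPM per kb in tumor libraries and 329.2 ± 178.8 in normal libraries. Fabp6 had 65.5 ± 90.5 CPM per kb in tumor libraries and 5.74 ± 13.3 in normal libraries.

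**Figure D1:**
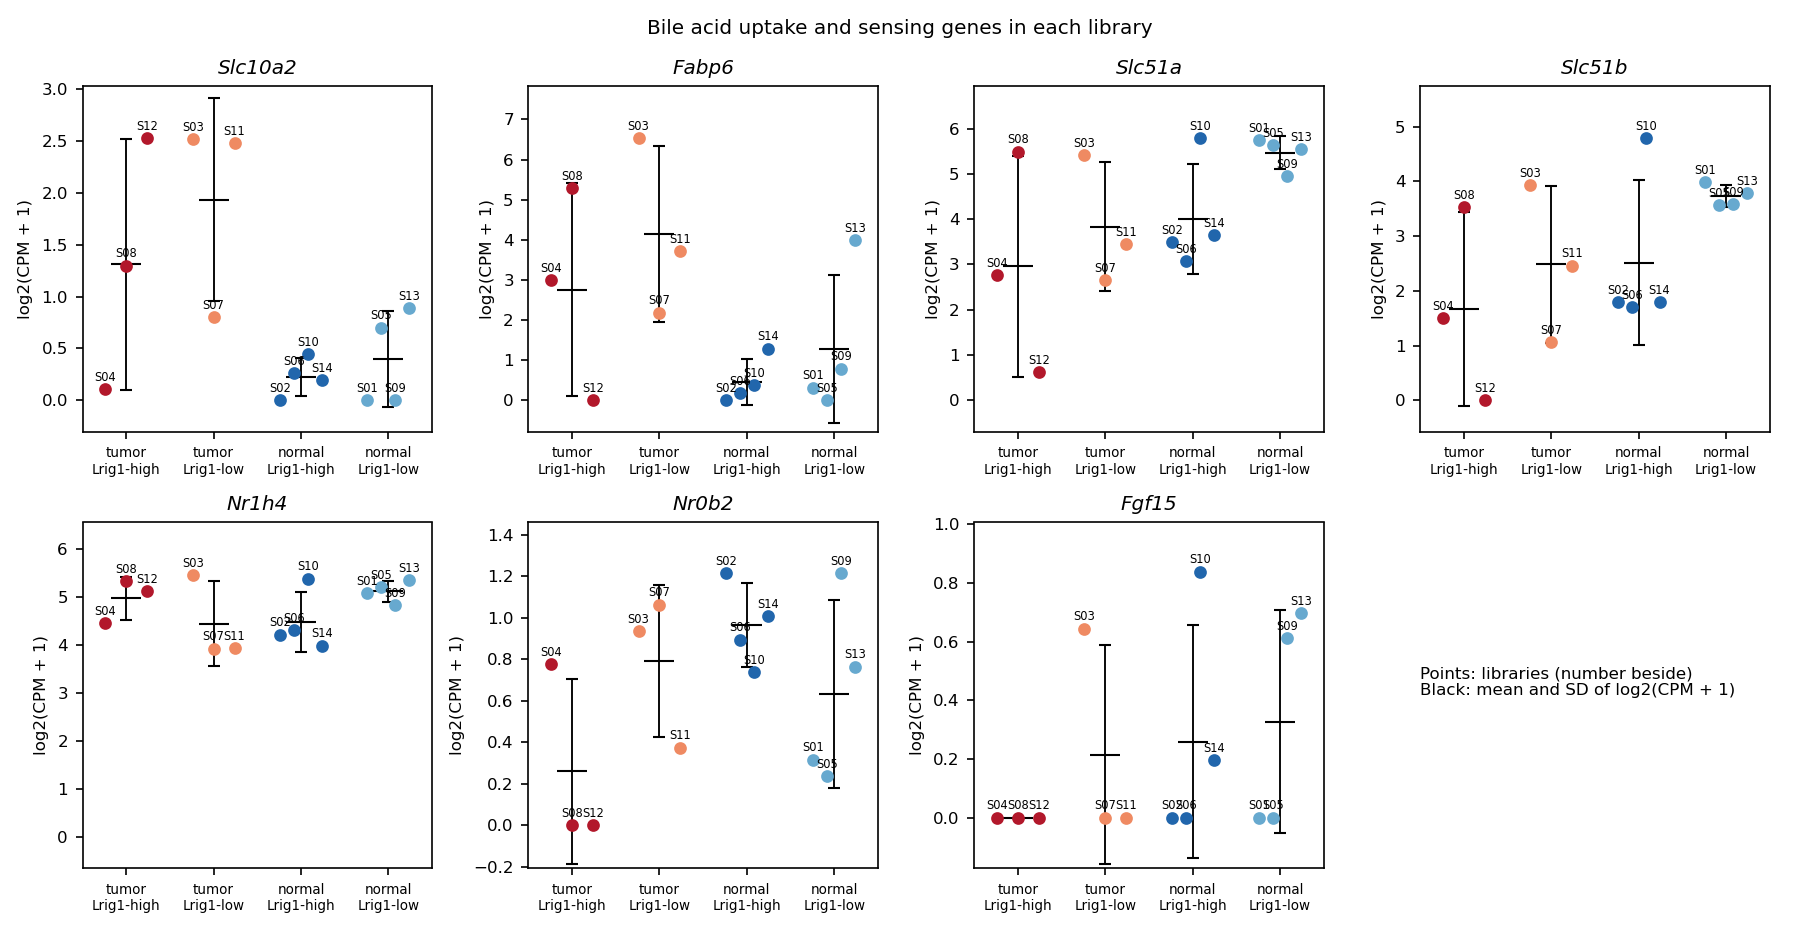
Level of each of the 7 genes in each library, as log2(CPM + 1), in tumor Lrig1-high, tumor Lrig1-low, normal Lrig1-high and normal Lrig1-low cells, with the mean and SD of each group in black; the vertical scale differs between genes. Fabp6 and Slc10a2 have their highest libraries among the tumors, whereas the 4 normal Lrig1-low libraries lie close together for Slc51a (29.8 to 52.8 CPM).

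The question the design poses is how Lrig1-high and Lrig1-low cells of tumors differ from those of normal epithelium. For uptake and carriage of bile acids, tumor libraries held more Slc10a2 and Fabp6 on average, but the libraries spread widely and no difference passed the test over all genes. None of the 6 members that passed the filter on low counts was called at an adjusted p under 0.05 (edgeR's quasi-likelihood test, Benjamini-Hochberg) in tumor against normal cells, where 2.22% of the 13883 genes tested were called over both fractions together, 0.331% in Lrig1-low cells and 0.0% in Lrig1-high cells (1559 genes at an unadjusted p under 0.05, and 0.821% called by DESeq2). Unadjusted, 2 of the 6 had p under 0.05 over both fractions, against 2413 of the 13883 genes.

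Slc10a2, the apical transporter (Entrez 20494, chromosome 8, 5085623 to 5105232 of mm10, minus strand, 6 exons), was low throughout. It had 0.0792, 1.46 and 4.75 CPM in tumor Lrig1-high libraries S04, S08 and S12, and 4.71, 0.747 and 4.58 CPM in tumor Lrig1-low libraries S03, S07 and S11. In normal Lrig1-high libraries S02, S06, S10 and S14 it had 0, 0.199, 0.363 and 0.145 CPM, and in normal Lrig1-low libraries S01, S05, S09 and S13 it had 0, 0.626, 0 and 0.855 CPM. S12, S03 and S11 stood above all the rest, while S04 and S07 lay within the normal range. Behind these values were 61 and 142 counts in the Lrig1-high and Lrig1-low tumor groups and 11 and 18 counts in the Lrig1-high and Lrig1-low normal groups, and a count of 0 allows up to 3 counts, which is 0.172 to 0.324 CPM in these libraries.

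Tumor libraries averaged 2.72 ± 2.19 CPM of Slc10a2 (SD, n = 6) and normal libraries 0.273 ± 0.320 CPM (SD, n = 8). The log2 fold change over both fractions was 3.32 ± 1.06 (SE, unadjusted p = 0.00762, adjusted p = 0.120 in edgeR). It was 3.49 ± 1.52 in Lrig1-high cells (adjusted p = 0.416) and 3.16 ± 1.48 in Lrig1-low cells (adjusted p = 0.365). Without S12, the library rich in mitochondrial ribosomal RNA, it was 2.01 in Lrig1-high cells (adjusted p = 0.758) and 2.56 over both fractions (adjusted p = 0.208 in edgeR). The fold ranged over the alternatives between 1.86 and 4.31 in Lrig1-high cells, with adjusted p of 0.113 or more, and between 2.56 and 4.05 over both fractions, with adjusted p between 0.0246 and 0.275. It was called by DESeq2 (3.39, adjusted p = 0.0246, with 7.64% of genes called) and by edgeR without S04 (3.61, adjusted p = 0.0486, with 7.34% called) over both fractions, and by limma-voom in Lrig1-low cells (adjusted p = 0.0291, with 10.0% called).

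Fabp6, the ileal bile acid carrier (Entrez 16204, chromosome 11, 43596112 to 43601511, minus strand, 4 exons), gave the widest range of the 7. It had 6.97, 38.1 and 0 CPM in S04, S08 and S12 of the tumor Lrig1-high group. In S03, S07 and S11 of the tumor Lrig1-low group it had 91.3, 3.56 and 12.1 CPM. In S02, S06, S10 and S14 of the normal Lrig1-high group it had 0, 0.132, 0.303 and 1.45 CPM. S01, S05, S09 and S13 of the normal Lrig1-low group had 0.244, 0, 0.726 and 14.9 CPM. In 5 of 6 tumor libraries the level was above that of 7 of 8 normal libraries, with S12 at 0 and S13 high as the exceptions, so the tissues overlapped.

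Tumor libraries averaged 25.3 ± 35.0 CPM of Fabp6 (SD, n = 6) and normal libraries 2.22 ± 5.15 CPM (SD, n = 8). Over both fractions the log2 fold change was 4.08 ± 1.33 (SE, unadjusted p = 0.00858, adjusted p = 0.126 in edgeR), and it ranged over the alternatives between 2.93 and 6.39, with adjusted p between 0.0690 and 0.287. In Lrig1-high cells it was 5.0 ± 1.98 (adjusted p = 0.384), and 2.91 without S08. In Lrig1-low cells it was 3.16 ± 1.78 (adjusted p = 0.496), with 0.91 when S03 was left out and 6.64 when S13 was left out. Without S07 to S10 it was 2.80 in Lrig1-high cells and 3.08 over both fractions (adjusted p = 0.287 in edgeR), and without S12 it was 4.34 over both fractions (adjusted p = 0.0793). In sorted populations such as these, more cells of a type and more RNA per cell cannot be told apart.

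On average the exporter genes were not higher in tumor libraries, although in the 6 tumor libraries Slc51a and Fabp6 were both highest in S03 and S08 and lowest in S12. Slc51a, the larger subunit (Entrez 106407, chromosome 16, 32475578 to 32487879, minus strand, 9 exons), had 5.78, 43.9 and 0.540 CPM in S04, S08 and S12 and 41.4, 5.29 and 9.91 CPM in S03, S07 and S11 of the tumors. In normal cells it had 10.3, 7.41, 54.0 and 11.5 CPM in the Lrig1-high libraries S02, S06, S10 and S14, and 52.8, 48.7, 29.8 and 45.5 CPM in the Lrig1-low libraries S01, S05, S09 and S13. The values fell in separate ranges, with 7 libraries between 29.8 and 54.0 CPM and 7 between 0.540 and 11.5 CPM, and each tissue had libraries in both. All 4 normal Lrig1-low libraries were in the upper range.

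Slc51b, the smaller subunit, without which the exporter does not reach the membrane (Entrez 330962, chromosome 9, 65412753 to 65422773, minus strand, 4 exons), followed Slc51a from library to library. It had 1.82, 10.6 and 0 CPM in S04, S08 and S12 and 14.3, 1.09 and 4.51 CPM in S03, S07 and S11. In the normal libraries it had 2.46, 2.25, 26.6 and 2.46 CPM in Lrig1-high cells and 14.9, 10.8, 11 and 12.8 CPM in Lrig1-low cells, in the same order as above. Per kb of exon, Slc51b stood at 0.653 to 1.56 times Slc51a in 13 libraries, and S12 had 0 counts of Slc51b beside 5 of Slc51a.

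Slc51a averaged 17.8 ± 19.5 CPM in tumor libraries and 32.5 ± 20.3 CPM in normal libraries, a log2 fold change of -0.77 ± 0.74 (SE, adjusted p = 0.652 in edgeR). It was -0.31 ± 1.04 in Lrig1-high cells (adjusted p = 0.912) and -1.23 ± 1.06 in Lrig1-low cells (adjusted p = 0.742). Slc51b averaged 5.38 ± 5.78 CPM in tumor libraries and 10.4 ± 8.29 CPM in normal libraries, a log2 fold change of -0.97 ± 0.88 (adjusted p = 0.632). In Lrig1-high cells the direction of both subunits rested on single libraries: without S08 the fold of Slc51a was -2.69, without S10 it was 0.78 and without S12 it was 0.21.

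**Figure D2:**
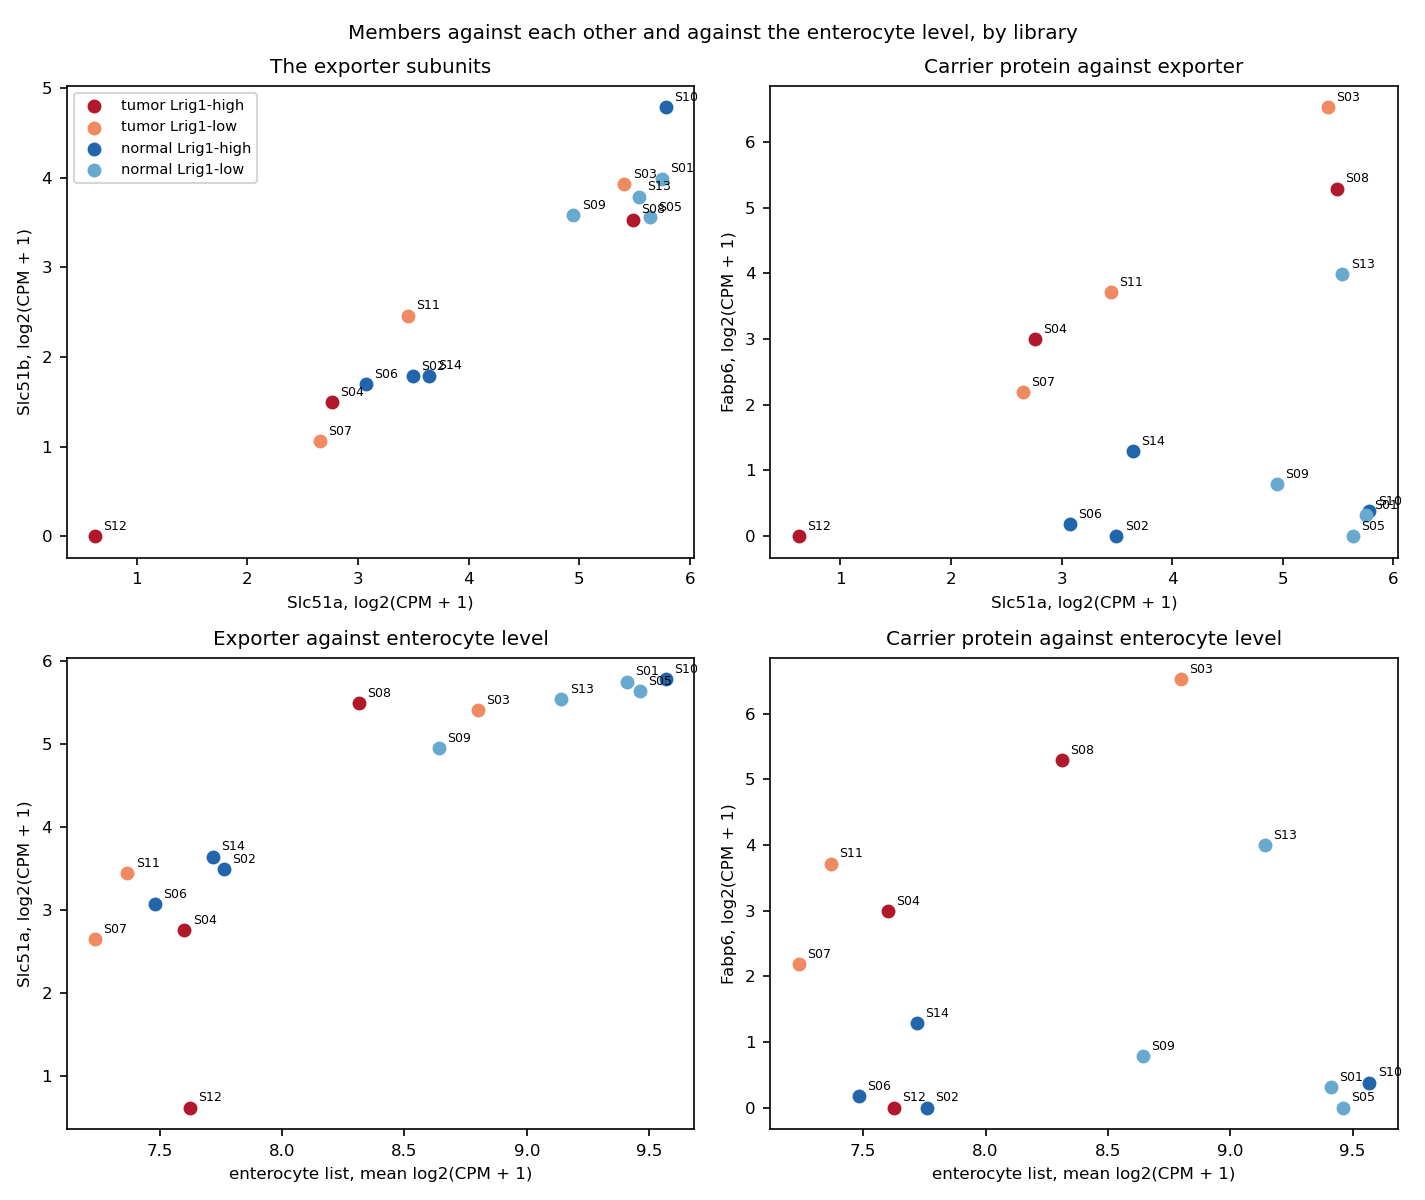
Each point is a library, coloured by group, on log2(CPM + 1) axes: Slc51b against Slc51a, Fabp6 against Slc51a, and both genes against the mean log2(CPM + 1) of 10 enterocyte genes of the whole small intestine. Slc51b lies along Slc51a, while Fabp6 is at 0 to 0.303 CPM in S01, S05 and S10, where Slc51a is at 48.7 to 54.0 CPM, and at 91.3 and 38.1 CPM in S03 and S08, where Slc51a is at 41.4 and 43.9 CPM.

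Set against each other within a library, Fabp6 and Slc51a gave a share that does not depend on sequencing depth or scaling. Fabp6 took 54.7%, 46.5% and 0% of the summed counts of both genes in S04, S08 and S12, the last on 5 counts (95% Wilson interval 0% to 43.4%). In the tumor Lrig1-low libraries it took 68.8% in S03, 40.3% in S07 and 55.0% in S11. In the normal Lrig1-high libraries S02, S06, S10 and S14 the shares were 0%, 1.75%, 0.557% and 11.2%, and in the normal Lrig1-low libraries S01, S05, S09 and S13 they were 0.461%, 0%, 2.38% and 24.7%. All tumor libraries but S12 thus lay above all normal libraries, from 40.3% (32.8% to 48.2%) in S07 to 24.7% (21.8% to 27.9%) in S13. The intervals cover counting error only and are too narrow, since both ends of a read pair were counted, and the ratio was chosen after its values were seen, so it is given without a test.

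**Figure D3:**
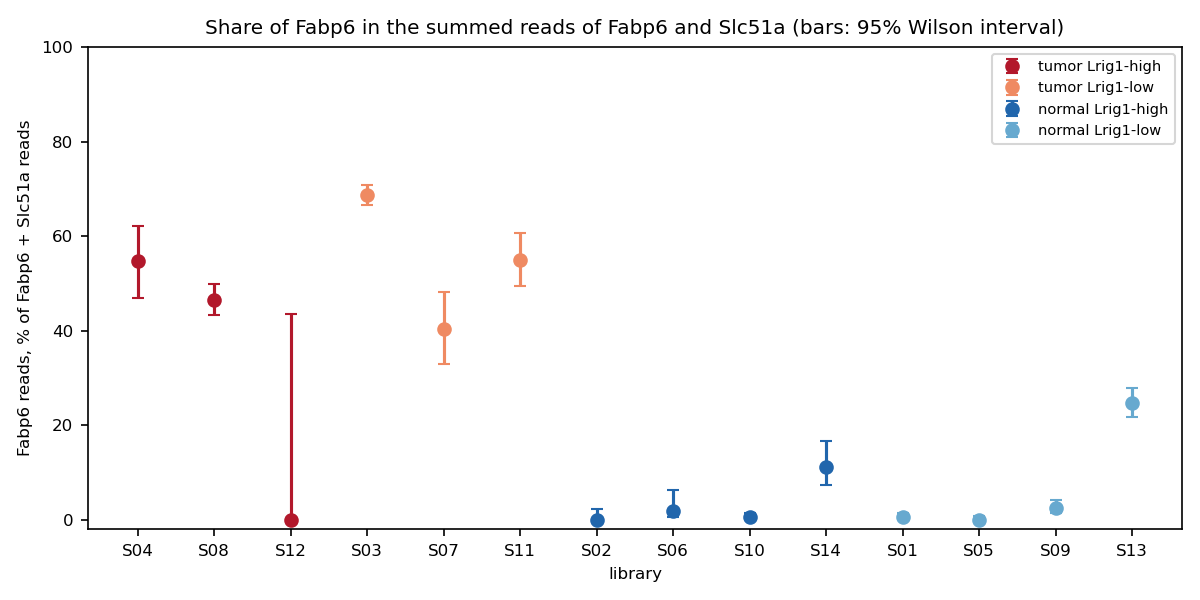
Reads of Fabp6 as a percentage of the summed reads of Fabp6 and Slc51a in each library, with 95% Wilson intervals (counting error only), tumor libraries at the left and normal libraries at the right. Tumor libraries other than S12 lie between 40.3% and 68.8%, and normal libraries between 0% and 24.7%.

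Nr1h4, the bile acid receptor FXR (Entrez 20186, chromosome 10, 89454234 to 89533622, minus strand, 11 exons), varied least relative to its level, between 14.2 and 43.2 CPM. It had 21.1, 39.5 and 33.9 CPM in S04, S08 and S12 and 43.2, 14.2 and 14.3 CPM in S03, S07 and S11. In normal cells it had 17.7, 18.8, 40.9 and 14.9 CPM in the Lrig1-high libraries and 33.0, 36.0, 27.7 and 39.8 CPM in the Lrig1-low libraries. The tissues overlapped over nearly their whole range, with means of 27.7 ± 12.8 CPM in tumors (SD, n = 6) and 28.6 ± 10.4 CPM in normal epithelium (SD, n = 8). The log2 fold change was -0.03 ± 0.31 over both fractions (adjusted p = 0.975 in edgeR), 0.45 ± 0.43 in Lrig1-high cells (adjusted p = 0.681) and -0.51 ± 0.44 in Lrig1-low cells (adjusted p = 0.740).

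Nr0b2, the corepressor SHP that Nr1h4 induces in liver and ileum (Entrez 23957, chromosome 4, 133553390 to 133556536, plus strand, 2 exons), did not exceed 21 counts in a library. It had 0.713 CPM in S04 and no count in S08 and S12, and 0.915, 1.09 and 0.296 CPM in S03, S07 and S11. Normal libraries had 0.666 to 1.32 CPM in Lrig1-high cells and 0.179 to 1.32 CPM in Lrig1-low cells. The log2 fold change in Lrig1-high cells was -1.93 ± 1.25 (adjusted p = 0.555 in edgeR), in Lrig1-low cells 0.32 ± 1.14 (adjusted p = 0.980) and over both fractions -0.81 ± 0.84 (adjusted p = 0.681). Without S04 both remaining tumor Lrig1-high libraries were at 0 and the gene was called (adjusted p = 0.0463, with 5.59% of genes called), against an upper limit of 3 counts each.

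Fgf15, the ileal hormone (Entrez 14170, chromosome 7, 144896532 to 144900953, plus strand, 3 exons), did not pass the filter and had no count in 9 of the 14 libraries. All 3 tumor Lrig1-high libraries were at 0, and of the tumor Lrig1-low libraries S03 had 0.563 CPM. In normal Lrig1-high cells S10 had the highest value of all, 0.788 CPM from 13 counts. A difference in this gene was not detectable at this depth.

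**Figure D4:**
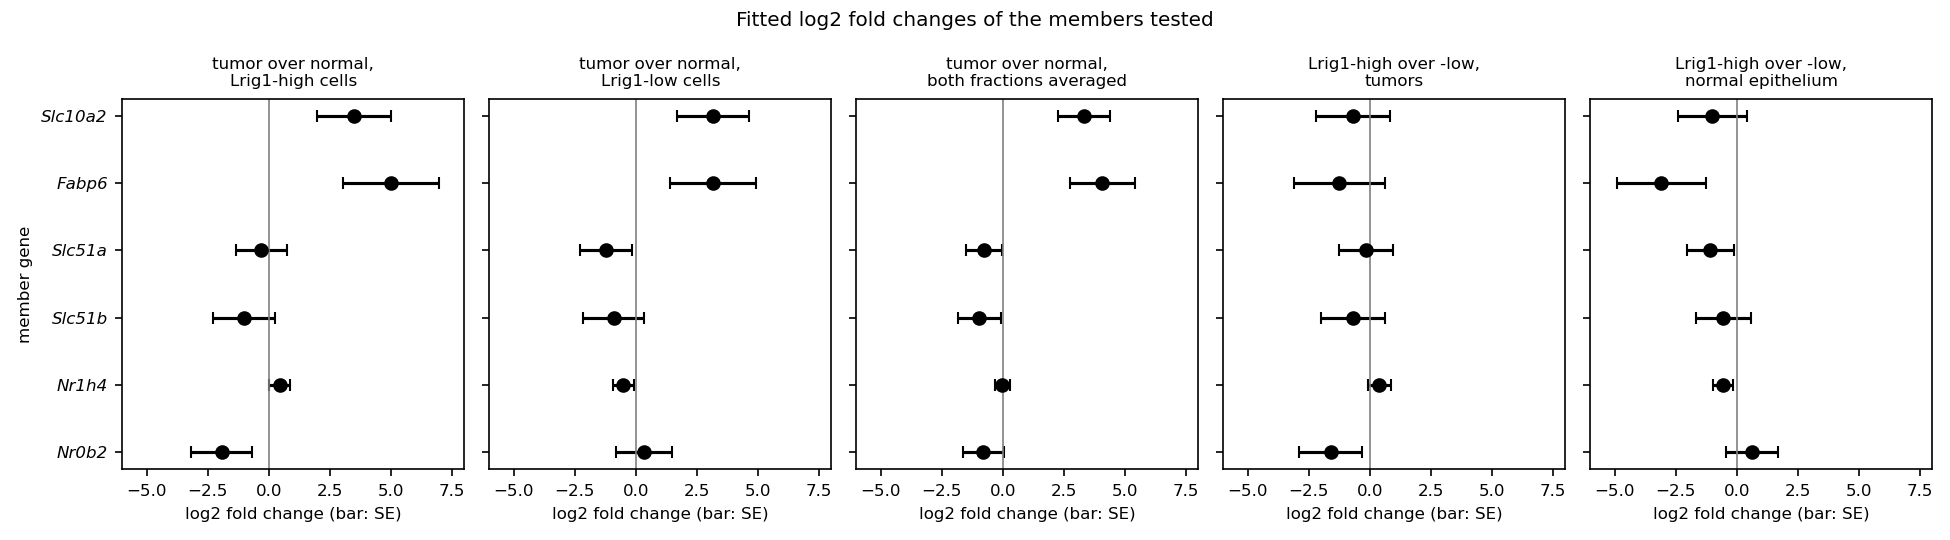
Fitted log2 fold changes with their standard errors (edgeR) of the 6 members tested, for tumor over normal in Lrig1-high cells, in Lrig1-low cells and over both, and for Lrig1-high over Lrig1-low cells in tumors and in normal epithelium. Slc10a2 and Fabp6 lie above 0 in the tumor panels (3.16 to 5.0), and no member passed the adjusted threshold in any panel.

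Between the reporter fractions, the exporter subunits and Nr1h4 were lower on average in Lrig1-high than in Lrig1-low cells of normal epithelium, without passing the main test. Slc51a averaged 20.8 ± 22.2 CPM in normal Lrig1-high libraries and 44.2 ± 10.0 CPM in normal Lrig1-low libraries (SD, n = 4 each), with a log2 fold change of -1.09 ± 0.96 (SE, adjusted p = 1 in edgeR). Slc51b averaged 8.44 ± 12.1 CPM in normal Lrig1-high and 12.4 ± 1.90 CPM in normal Lrig1-low libraries (-0.55 ± 1.13, adjusted p = 1). Nr1h4 averaged 23.1 ± 12 CPM in normal Lrig1-high and 34.1 ± 5.12 CPM in normal Lrig1-low libraries (-0.56 ± 0.40, adjusted p = 1). In each of these genes S10, labelled Lrig1-high, had the highest normal value, and the other 3 Lrig1-high libraries lay below all 4 Lrig1-low libraries. This order was not particular to them. The mean log2(CPM + 1) of 10 general enterocyte genes was 7.48 to 7.76 in S02, S06 and S14. It was 8.64 to 9.46 in the Lrig1-low libraries and 9.57 in S10. The share of all genes with this order was not counted.

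Across all 13883 genes edgeR called 0.0% in this comparison, with 499 genes at an unadjusted p under 0.05, DESeq2 called 1 gene (0.0072%) and limma-voom with sample weights called 30.0%. Under limma-voom the folds of Slc51a, Slc51b and Nr1h4 were -2.16, -2.25 and -1.0 (adjusted p = 0.00497, 0.00888 and 0.0112). Without S07, S08, S09 and S10, edgeR gave -2.32 ± 0.71 for Slc51a, -2.41 ± 0.91 for Slc51b and -1.06 ± 0.39 for Nr1h4 (adjusted p = 0.0952, 0.159 and 0.146), with 5.69% of genes called. These 4 libraries were picked by Lrig1 values that go with those of the enterocyte genes, so that fit is not independent evidence.

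Fabp6 averaged 0.471 ± 0.663 CPM in normal Lrig1-high libraries and 3.97 ± 7.31 CPM in normal Lrig1-low libraries (-3.08 ± 1.82, adjusted p = 1 in edgeR), and the fold was 0.45 without S13. Slc10a2 averaged 0.177 ± 0.150 CPM in normal Lrig1-high and 0.370 ± 0.438 CPM in normal Lrig1-low libraries (-1.01 ± 1.41, adjusted p = 1). Nr0b2 averaged 0.966 ± 0.278 CPM in normal Lrig1-high and 0.611 ± 0.527 CPM in normal Lrig1-low libraries (0.64 ± 1.07, adjusted p = 1).

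In tumors the fractions overlapped for every member, and edgeR called 0.0% of all genes (1042 at an unadjusted p under 0.05, and 18, or 0.13%, called by DESeq2). Fabp6 averaged 15 ± 20.3 CPM in tumor Lrig1-high and 35.6 ± 48.4 CPM in tumor Lrig1-low libraries (SD, n = 3 each), with a log2 fold change of -1.24 ± 1.85 (adjusted p = 0.883 in edgeR). The folds of Slc10a2, Slc51a, Slc51b and Nr1h4 were -0.68 ± 1.51, -0.17 ± 1.11, -0.68 ± 1.32 and 0.40 ± 0.47. Without S07 to S10, where 0.343% of genes were called, the subunits stood at -2.94 ± 0.91 and -3.25 ± 1.17 (adjusted p = 0.166 and 0.199 in edgeR). The test of whether the tumor difference differed between the fractions called 0.0% of genes in edgeR (999 at an unadjusted p under 0.05, and 5, or 0.036%, called by DESeq2), with 1.84 ± 2.52 for Fabp6 (adjusted p = 0.844) and 0.33 ± 1.90 for Slc10a2 (adjusted p = 0.963).

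Of 20 other genes that handle or sense bile acids, 19 were in the table and 14 were tested. Over both fractions 1 of the 14 was higher in tumor cells and none lower at the threshold, and 4 of 14 folds were positive with a median of -0.56, beside 48.4% positive and a median of -0.02 over all genes tested. The called gene was Abcc4, an exporter of bile acids and cyclic nucleotides. It had 19.4, 33.2 and 44.8 CPM in S04, S08 and S12, and 49.9, 20.3 and 152.7 CPM in S03, S07 and S11, against 1.30 to 28.1 CPM in normal libraries. S11, highest for Abcc4, was also highest for the endothelial marker Cdh5 (154.7 CPM). The part of other cell types in the values of Abcc4 was not tested. Abcc4 rose by 2.62 ± 0.59 on the log2 scale (SE, adjusted p = 0.0395 in edgeR), and the call was lost when any of S01, S02, S05, S06, S08, S11, S12, S13 or S14 was left out (folds 2.08 to 3.07, adjusted p up to 0.138). The most abundant of the list, the nuclear receptors Hnf4a and Vdr, did not pass, with folds of -0.58 ± 0.24 and -0.54 ± 0.33. The liver genes of bile acid synthesis and uptake Cyp7a1, Cyp8b1 and Slc10a1 had no count in any library, and the bile acid receptor Gpbar1 and the canalicular exporter Abcb11 stayed at or below 0.358 CPM.

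The members were set beside genes that other parts of the small intestine use. Of 15 genes of the proximal small intestine, 3 were lower in tumor cells over both fractions and none higher, and all 15 folds were negative (median -0.99). Over all 13883 genes tested, 55 were called lower and 253 higher, 48.4% of folds were positive and the median was -0.02. Of 12 other genes of distal enterocytes none was called, 5 folds were positive and the median was -0.29, and of 10 genes of enterocytes in general none was called, 1 fold was positive and the median was -0.97. Gata4, the transcription factor that separates the proximal small intestine from the ileum, had 84.3, 92.6 and 88.3 CPM in S04, S08 and S12 and 105.5, 80.5 and 109.0 CPM in S03, S07 and S11, against 140.3 to 201.6 CPM in normal libraries, without overlap. It fell by 0.88 ± 0.12 on the log2 scale (adjusted p = 0.00618 in edgeR). The share of all genes without overlap between tumor and normal libraries was not counted.

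Khk, the ketohexokinase that phosphorylates fructose and also of the proximal list, fell by 1.68 ± 0.39 on the log2 scale (adjusted p = 0.0431 in edgeR). It had 10.9 to 46.9 CPM in tumor libraries and 27.7 to 152.2 CPM in normal libraries. The call of Khk was lost without any of S01, S02, S05, S07, S08, S09, S11, S12, S13 or S14 (adjusted p up to 0.125). Gata4 stayed called over both fractions whichever library was left out. It was also the list gene called in Lrig1-low cells alone (-0.94 ± 0.17, adjusted p = 0.0359 in edgeR), a call lost without any of S01, S02, S04, S05, S06, S07, S11 or S13. Fabp1 and Fabp2 had folds of -1.07 ± 0.55 and -1.10 ± 0.36 (adjusted p = 0.340 and 0.130), with a sign opposite to that of Fabp6. Of the distal list, the most abundant genes Clec2h and Naaladl1 had folds of -0.34 ± 0.54 and 0.0184 ± 0.53. Of the 10 colon genes 7 were tested over both fractions, none was called and 2 folds were positive (median -0.28).

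Between the fractions of normal epithelium, 0 of 12 distal, 0 of 15 proximal and 0 of 10 general enterocyte genes had a positive fold (medians -1.15, -0.69 and -0.74), and all 8 crypt base genes did (median 1.71), beside 51.2% positive and a median of 0.0126 over all genes tested, with none called by edgeR. The mean log2(CPM + 1) of the general enterocyte list was 7.48 to 9.57 in normal Lrig1-high libraries, the highest in S10, and 8.64 to 9.46 in normal Lrig1-low libraries. The part of the enterocyte share of cells in the exporter's values was not tested. Markers of cells that the gate removes were also measured. The summed level of 8 leukocyte markers was 1.40 to 57.2 CPM in tumor libraries, highest in S08 through 46.0 CPM of Ptprc, and 4.22 to 27.4 CPM in normal libraries, with Cd52 at 0 throughout and Cd79a and Csf1r at or below 0.281 CPM. Of 6 endothelial markers the sum was 3.41 to 170.8 CPM in tumor libraries, highest in S11 through 154.7 CPM of Cdh5 beside 45.8 CPM of all 7 members together, and 0.568 to 35.5 CPM in normal libraries. Cdh5 had 2.62 to 154.7 CPM in tumor libraries and 0 to 30.2 CPM in normal libraries, with Kdr at or below 0.222 CPM. Tek had 0.108 to 14.6 CPM in tumor libraries and 0.0660 to 4.30 CPM in normal libraries. The sum of 6 fibroblast markers was 0 to 26.4 CPM in tumor libraries and 0 to 9.15 CPM in normal libraries, with Lum at 0 throughout, and that of 6 hepatocyte markers was 5.29 to 43.6 CPM in tumor libraries and 3.76 to 30.5 CPM in normal libraries, with Fgb at 0 throughout. Their part in the members' differences was not tested.

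Genes whose pattern over the 14 libraries was most like that of a member were ranked by Pearson's r of log2(CPM + 1) among 8558 genes. The 5 nearest to Slc51a were Dpep1, a brush border dipeptidase (r = 0.990), Tmem253 (0.979), the anion exchanger Slc26a6 (0.978), Acot11 (0.974) and Tle5 (0.968). Slc51a falls in separate ranges of libraries, and no correlation was computed within either. The 5 nearest to Nr1h4 were Naip6 (0.936), Mall (0.931), Ms4a8a (0.927), the interleukin 22 receptor subunit Il22ra1 (0.917) and Serpinb1a (0.910).

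The 5 nearest to Fabp6 were Cybrd1 (0.891), Akp3 (0.867), the chloride channel Ano1 (0.865), the calcium pump Atp2b1 (0.835) and Mboat1 (0.826). Cybrd1, the ferric reductase known as duodenal cytochrome b, had 25.4, 45.8 and 5.83 CPM in S04, S08 and S12 and 97.2, 12.6 and 12.4 CPM in S03, S07 and S11. In normal libraries it had 3.04 to 4.60 CPM in Lrig1-high cells and 0 to 28.4 CPM in Lrig1-low cells, the highest in S13, as for Fabp6. Akp3, an intestinal alkaline phosphatase, had 25.2 to 269.2 CPM in tumor libraries, highest in S03 and S08, and 1.46 to 83.9 CPM in normal libraries, highest in S13. Their log2 fold changes over both fractions were 2.57 ± 0.98 and 3.10 ± 0.81 (adjusted p = 0.187 and 0.0618 in edgeR). Those of Ano1 and Atp2b1 were 2.12 ± 0.54 and 0.44 ± 0.14 (adjusted p = 0.0584 and 0.118 in edgeR). Mboat1 was called, with 2.17 ± 0.38 (adjusted p = 0.0170 in edgeR), where 2.22% of all genes tested were called. It had 9.72 to 47.5 CPM in tumor libraries and 3.02 to 9.09 CPM in normal libraries. These 5 genes were picked because they follow Fabp6 over the same libraries. Their tumor folds and the call of Mboat1 are therefore not independent of the Fabp6 values. Correlations over these libraries share their depth and group structure and are a description only.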

How the data were processed

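RNA sequencing counts of 15 libraries of sorted mouse intestinal epithelial cells were used, in 4 groups given by the sample titles. Per the file headers, the authors counted reads with featureCounts 1.5.3 over RefSeq exons (mm10), summed by gene and stranded in reverse, and the deposited counts are not normalized. The command gives no fragment option, so each end of a pair counts as a read, and none for reads that map to several genes. Trimmomatic, HISAT2 and Subread are named in the submitters' processing notes, with versions not given in the sources used here. Library totals were 9508505 to 17296536 counts, except S15 with 357, which was left out. Of 27179 gene identifiers, 25275 matched a RefSeq symbol and 18 more a GENCODE M21 symbol.

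Tests used edgeR 4.0.16 (R 4.3.3): TMM scaling, filterByExpr (13883 genes), a coefficient per group over 14 libraries, quasi-likelihood F tests and Benjamini-Hochberg adjustment over all genes, with a call threshold of 0.05. A standard error is the size of the log2 fold change over the root of F. CPM used TMM-scaled totals, and no covariate was fitted. The 6 comparisons were repeated with DESeq2 1.42.0, limma-voom 3.58.1 with sample weights, other scalings, filters and library sets, and leaving out each library in turn. The fits were also run on simulated counts with a fixed dispersion. That run does not measure power or error for the members.

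The members, the gene lists and the set S07 to S10 were chosen with earlier results of these data known. Besides the members, the text names the list genes that passed (at most 6 per list and comparison), otherwise the 2 most abundant, with Gata4, Fabp1 and Fabp2 always. It also names the 5 genes most like each member with a mean of at least 10 CPM. Others, among them Sis, Hoxb13, Car1, the named markers of other cell types and the share of Fabp6, were picked after their values were seen. Some list genes that the rule would name are not reported here.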

Additional observations from a re-analysis of the deposited data

Results flagged for a closer look

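In 4 of 14 group-by-gene comparisons made in the 2 groups of 4 libraries, a single library stood apart from the other 3 by more than Dixon's 95% critical value. Chance gives such a gap in about 1 in 20 groups, and the genes share libraries. Fabp6 in normal Lrig1-low cells had 14.9 CPM in S13, against 0 to 0.726 CPM in the other 3 libraries (gap over range 0.951).

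The other 3 gaps were all in S10, labelled normal Lrig1-high. Slc51a had 54.0 CPM there, against 7.41 to 11.5 CPM in the other 3 libraries (0.912). Slc51b had 26.6 CPM, against 2.25 to 2.46 CPM (0.991), and Nr1h4 had 40.9 CPM, against 14.9 to 18.8 CPM (0.85). In S10 Lrig1 was at 36.3 CPM, against 126.2 to 145.9 CPM in the other normal Lrig1-high libraries, and the crypt base gene Olfm4 was at 15.4 CPM, against 3226 to 4775 CPM. Whether S10 and its label match was not tested.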

How the results depend on the processing

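Of 812 log2 fold changes of the members recomputed under 9 alternatives and 14 fits that left out a library each, 765 kept their direction and side of the threshold, 7 kept their direction and passed it, and 40 changed sign. The number of members called in the main fits was 0. limma-voom called 1 in tumor against normal Lrig1-low cells and 3 in Lrig1-high against Lrig1-low normal cells, and DESeq2 called 1 in tumor against normal over both fractions. Leaving out a library in turn gave 0 to 1 called members in tumor against normal Lrig1-high cells and over both fractions, the 1 without S04. The cause of these changes was not tested.

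Signs changed under limma-voom for Slc51a (0.0258) and Slc51b (0.0855) in tumor against normal Lrig1-high cells, for Nr1h4 over both fractions (0.19) and between tumor fractions (-0.18), and in the interaction for Slc10a2 (-1.94) and Slc51b (0.72). Without S07 to S10 they changed for Nr1h4 over both fractions (0.18) and between tumor fractions (-0.0238), and in the interaction for Fabp6 (-0.55) and Slc51a (-0.62). With each set of 4 successive libraries as a block they changed in the interaction for Slc10a2 (-1.13) and Slc51b (0.46). None of these folds passed the threshold in any fit. Leaving out each library gave, in tumor against normal Lrig1-high cells, -2.69 to 0.78 for Slc51a and -3.15 to 0.79 for Slc51b, in Lrig1-low cells -0.0237 to 1.0 for Nr0b2, and over both fractions -0.44 to 0.18 for Nr1h4. Between the fractions it gave -4.66 to 0.45 for Fabp6 in normal cells, and -3.33 to 0.98 for Fabp6, -2.55 to 1.17 for Slc51a and -2.80 to 0.61 for Slc51b in tumors. In the interaction it gave -1.67 to 4.03 for Fabp6, -1.10 to 0.94 for Slc10a2, -1.46 to 2.24 for Slc51a and -2.25 to 1.69 for Slc51b.

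Over all genes, 308 were called over both fractions in the main fit, against 165 to 1060 under the alternatives, 34 without S11 and 1060 without S04. In Lrig1-low cells 46 were called, against 68 to 1389 under the alternatives and 0 to 285 with a library left out. Leaving out S04 gave 807 calls in Lrig1-high cells, 365 between tumor fractions and 157 in the interaction, where the main fits gave 0. The labels pair no libraries, as each has its own running number and no animal is named. The block of successive libraries, whose pairing no label states, called no member, 143 genes higher and 22 lower in tumors over both fractions, and 90 higher and 5 lower in Lrig1-low cells. Depth limits Fgf15, Nr0b2 and Slc10a2, whose libraries often hold under 20 counts. Adding S15 or dropping the filter changed no direction of a member.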
